A study of Mus musculus with 4 samples.

Results

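RNA was measured in epithelial cells of the mouse tongue at embryonic day 16, and 55 genes that act in mitosis are described here, of 24453 genes in the deposited tables. The genes were taken by symbol from a list of mitotic cyclins and kinases, checkpoint and kinetochore proteins, mitotic kinesins, spindle and cytokinesis proteins, condensin subunits and regulators of anaphase, and all 55 were found. Of the 4 libraries, 2 are labelled Ring1a/b 2KO (genotype Ring1a-/- Ring1bfl/fl K14-Cre+) and 2 are labelled Control. Ring1a (gene Ring1) and Ring1b (gene Rnf2) are the ubiquitin ligases of Polycomb repressive complex 1, and in the 2KO embryos Ring1a is lost in the germline while the floxed Ring1b is cut by a Cre driven from the Krt14 promoter, which is active in basal keratinocytes. The labels give no genotype for the Control embryos beyond that word, and do not say whether embryos were pooled. All 4 libraries come from tongues without the circumvallate papilla, dissociated and sorted for EpCAM, an adhesion protein of epithelial cells. The series asks what Polycomb repressive complex 1 does in the lingual epithelium, and the comparison is 2KO against Control.

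In mitosis the kinase CDK1, bound to cyclin A or cyclin B, drives chromosomes to condense and the spindle to form. Each chromosome is held to spindle microtubules by a kinetochore, a protein assembly on the centromere, and a checkpoint holds back anaphase until all kinetochores are attached. The anaphase-promoting complex then marks cyclin B and securin for destruction, separase cuts the cohesin that holds sister chromatids, and the cell divides. Transcripts of most of these genes accumulate late in the cell cycle, in S, G2 and M phase, so that in a tissue they are made by its dividing cells, which in tongue epithelium lie mainly in the basal layer. In RNA from a population of cells, fewer dividing cells and less of these RNAs in each dividing cell cannot be told apart.

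The libraries held 18039767 and 20545262 counts in the 2KO-labelled group and 20624055 and 16256569 in Control. Neither targeted gene was lower in libraries labelled 2KO. Ring1 stood at 16.8 and 15.0 CPM (read counts scaled to TMM-adjusted library sizes) in libraries labelled 2KO and at 9.02 and 8.57 CPM in Control (log2 fold change 0.85, standard error (SE) 0.312, adjusted p = 0.101). Rnf2 stood at 62.9 and 62.4 CPM in libraries labelled 2KO and at 34.0 and 51.3 CPM in Control (log2 fold change 0.56, SE 0.221, adjusted p = 0.126). The call for Rnf2 changed without Control replicate 2, where its log2 fold change was 0.89 and it was called higher. Counts over a whole gene do not show a deleted exon, so every direction below is that of the libraries as labelled. Summed levels of some cell type markers differed between the groups without overlap, and those of others overlapped. The ribosomal precursor Rn45s took 22.9% and 20.2% of counts in libraries labelled 2KO and 16.7% and 15.3% in Control. Of 10 markers of suprabasal keratinocytes, the cells that have left the basal layer, 6 were called lower, and their summed level was 919 and 469 CPM in libraries labelled 2KO, against 3088 and 2124 CPM in Control. Of 8 basal keratinocyte markers, 2 were called lower (Krt5 and Krt14). The log2 fold changes of the 8 were 4 negative and 4 positive (median -0.17). Their sum was 10841 and 11758 CPM in libraries labelled 2KO and 15524 and 12727 CPM in Control. Epcam itself was at 216 and 245 CPM in libraries labelled 2KO and at 221 and 189 CPM in Control. Endothelial markers (10) summed to 46.8 and 69.7 CPM in libraries labelled 2KO, against 37.4 and 30.6 CPM in Control. Immune markers (7) summed to 53.1 and 44.5 CPM in libraries labelled 2KO, against 25.1 and 17.6 CPM in Control. Of the immune markers 4 were tested, 2 with positive and 2 with negative log2 fold changes, and 1, Cd68, was called higher. Skeletal muscle markers (9) summed to 23.4 and 44.9 CPM in libraries labelled 2KO and to 32.6 and 205 CPM in Control, the last value from Control replicate 2. Mesenchyme markers (8) summed to 380 and 340 CPM in libraries labelled 2KO, against 309 and 374 CPM in Control. Their log2 fold changes were 4 positive and 4 negative (median 0.12), and Postn was called lower. Nerve and glia markers (8) summed to 114 and 128 CPM in libraries labelled 2KO, against 172 and 125 CPM in Control. Of these, 3 had positive and 5 negative log2 fold changes, and Tubb3 was called lower. Erythroid and melanocyte markers summed to under 10 CPM in every library, with 3 of 6 erythroid and 2 of 5 melanocyte markers at 0 in all 4. On the deposited FPKM scale, however, the erythroid markers summed to 31.3 and 80.8 in libraries labelled 2KO and to 45.5 and 126 in Control, mostly from the globin genes Hba-a1 and Hbb-bs, which have 0 counts in every library. The melanocyte markers summed to 1.95 and 0.749 FPKM in libraries labelled 2KO and to 1.09 and 0.848 FPKM in Control. The part of these shifts in the values below was not tested. Nothing in the labels ties the replicates to different embryos. The p-values then cover only the variation among these 4 libraries, and this could be technical.

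Most of the mitotic genes were at a lower level in libraries labelled 2KO. Of the 55, 19 were called lower and 0 higher by edgeR's quasi-likelihood test (adjusted p under 0.05 over the 15336 genes tested), and 36 did not pass. At an unadjusted p under 0.05 the counts were 38 lower and 2 higher. Over all 15336 genes tested, 2023 were lower and 2218 higher at that unadjusted threshold. By adjusted p, 4.92% of all genes tested were called lower and 7% higher. The log2 fold change was negative for 50 of the 55 genes, against 49.6% of all genes tested. In 44 genes both 2KO-labelled libraries lay below both Control libraries, an order found in 28.7% of all genes, and in 2 they lay above, found in 29% of all genes. The median log2 fold change over the 55 was -0.62, beside 0.0065 over all genes tested, and the values ran from -1.18 for Kif18a to 0.82 for Pttg1. Reads of the 55 genes made up 0.339% and 0.353% of all counts in libraries labelled 2KO and 0.531% and 0.543% in Control. Their summed level was 3473 and 3589 CPM in libraries labelled 2KO, against 5364 and 5182 CPM in Control. The typical gap between replicates was smaller than that between groups: the median absolute log2 difference between replicates over the 55 genes was 0.187 in the 2KO-labelled group and 0.196 in Control.

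The calls depended on the unit and on single libraries. On the deposited FPKM values (fragments scaled by the authors to transcript length and library size), tested as log2(FPKM + 1) with limma, 1 of the 55 genes was lower (Top2a) and 1 higher (Pttg1). There the median log2 fold change of the 55 was -0.45, and 507 genes in all were called higher and 204 lower, a share of 71.3% higher against 58.7% on the counts. Summed FPKM of the 55 genes was 1162 and 1194 in libraries labelled 2KO and 1436 and 1411 in Control. Without 2KO replicate 1, 10 of the 55 were called lower in place of 19. Of the 19 calls, 13 were lost when at least 1 of the 4 libraries was left out. The other 6, Top2a, Cenpe, Cenpf, Ccna2, Tpx2 and Aspm, held in every setting that used counts.

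**Figure D1:**
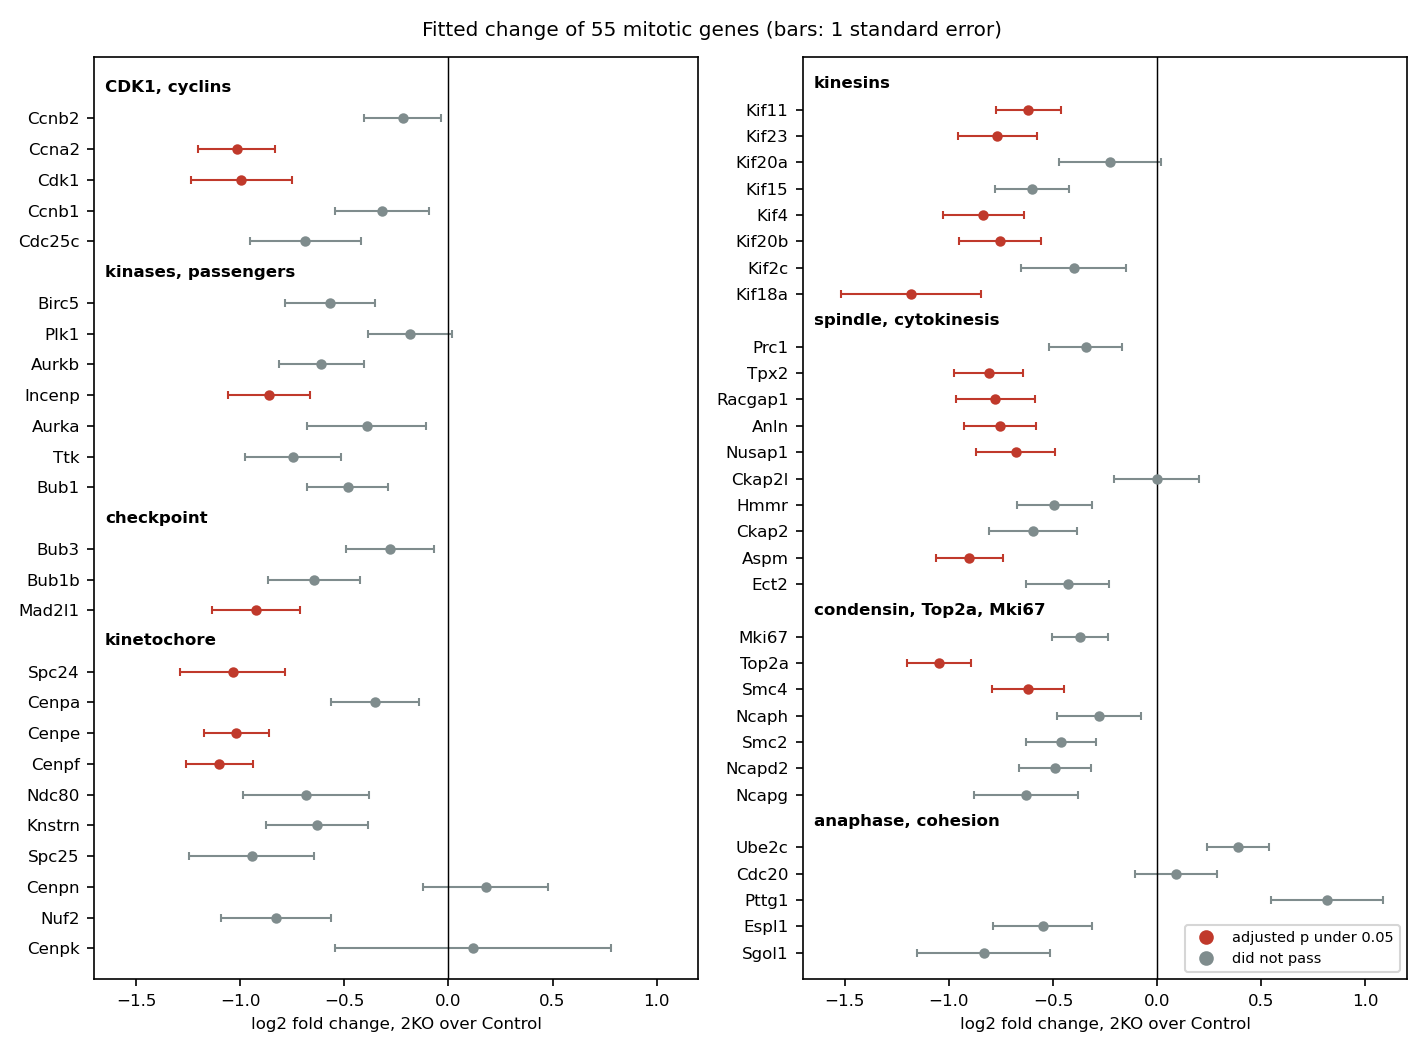
Log2 fold change (2KO over Control, horizontal axis) of each of the 55 genes, grouped by role, with bars of 1 SE; red points passed an adjusted p of 0.05 and grey points did not. The 19 red points all lie left of 0, and the anaphase group holds the point farthest to the right, Pttg1 at 0.82.

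Per length, Ube2c was the most abundant of the 55 genes and Cenpk the least. Ube2c, which encodes the ubiquitin-conjugating enzyme of the anaphase-promoting complex, had 288 and 298 FPKM in libraries labelled 2KO and 227 and 236 FPKM in Control. Mki67, the gene of the proliferation marker Ki-67, and Top2a, topoisomerase II alpha, came next by mean FPKM. Mki67 had 77.0 and 65.9 FPKM in libraries labelled 2KO and 88.8 and 76.7 FPKM in Control, and Top2a had 48.6 and 59.3 FPKM in libraries labelled 2KO, against 101 and 89.9 FPKM in Control. Top2a thus lay below Mki67 in both 2KO-labelled libraries and above it in both Control libraries on this scale. Cenpk had 4.22 and 1.24 FPKM in libraries labelled 2KO and 2.08 and 1.55 FPKM in Control. The median of the 55 mean FPKM values was 17.4.

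**Figure D2:**
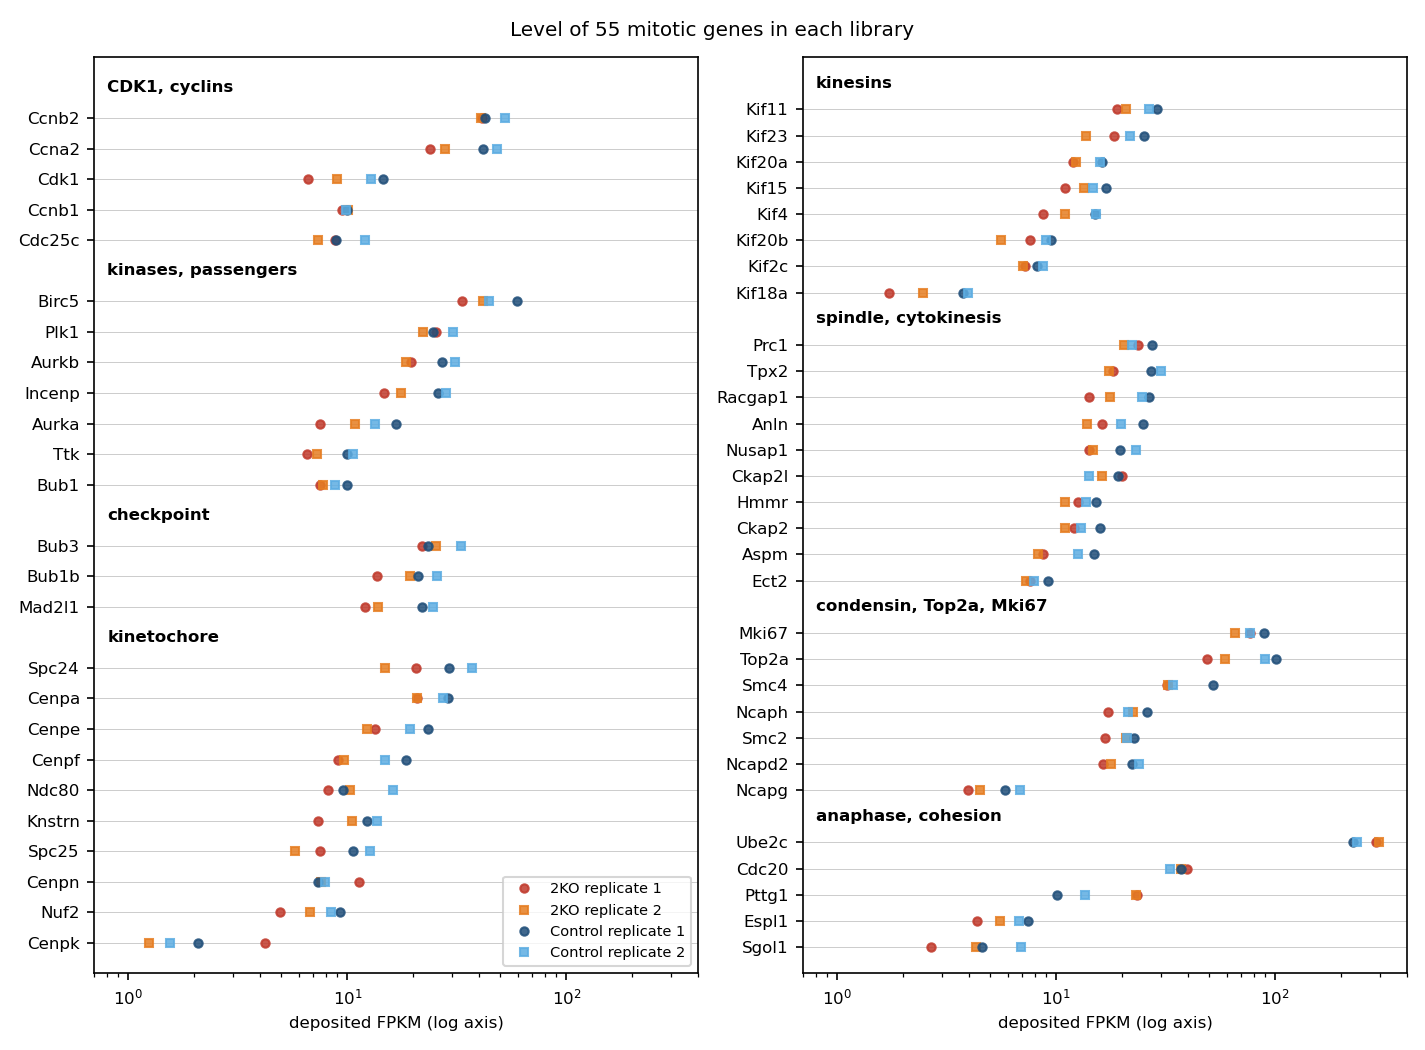
Deposited FPKM (log axis) of each of the 55 genes in the 4 libraries, grouped by role; red circles and orange squares are the 2KO replicates, dark and light blue the Control replicates. Ube2c stands apart at 227 to 298 FPKM, and for most genes in 7 of the 8 groups the red and orange points lie left of the blue ones.

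Many late cell cycle genes carry a pair of short promoter elements, the cell cycle genes homology region (CHR), bound by the DREAM and MYB-MuvB complexes, and the CCAAT box, bound by NF-Y. The members' promoters were searched for these elements as a description of the list. Whether the elements have a part in the change between the groups was not tested. RefSeq windows on GRCm38.p6 (the assembly of mm10), from 250 bases before to 50 bases after the annotated start, were matched for 47 of the 55 genes. The letters TTTGAA and TTCGAA (CHR) and CCAAT were searched on both strands. A CHR match lay in 36 of the 47 windows (76.6%), beside 19.4% of the windows of 27025 genes. CCAAT lay in 34 (72.3%), beside 37.9% of all, and both lay in 31 (66.0%), beside 7.70%. No member window had a CHR match that overlapped a CCAAT match. The CHR match was within 50 bases of the start in 32 of the 47 windows (68.1%), beside 5.50% of all genes. Such a match is a run of letters and no measured site. The windows of the gene with the highest mean FPKM in each role follow, except for Spc24, which had none; its place went to Cenpf, the called member with the smallest p, and not to Cenpa, the next kinetochore gene by FPKM. Each reads 5′ to 3′ on the gene's strand, with matches to either strand in capitals.
Ccnb2 (chr9:70421505-70421804, minus strand): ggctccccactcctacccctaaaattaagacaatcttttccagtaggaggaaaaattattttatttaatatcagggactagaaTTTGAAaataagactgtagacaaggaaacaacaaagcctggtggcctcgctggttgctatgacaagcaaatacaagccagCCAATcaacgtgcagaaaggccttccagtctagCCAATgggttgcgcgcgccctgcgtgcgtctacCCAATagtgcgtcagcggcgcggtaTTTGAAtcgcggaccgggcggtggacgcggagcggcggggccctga
Birc5 (chr11:117848987-117849286, plus strand): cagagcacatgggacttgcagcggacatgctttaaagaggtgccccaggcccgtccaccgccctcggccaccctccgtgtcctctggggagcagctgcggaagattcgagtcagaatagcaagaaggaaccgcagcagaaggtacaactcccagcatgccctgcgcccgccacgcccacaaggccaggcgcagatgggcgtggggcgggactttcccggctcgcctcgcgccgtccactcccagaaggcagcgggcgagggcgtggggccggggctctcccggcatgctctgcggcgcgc
Bub3 (chr7:131560120-131560419, plus strand): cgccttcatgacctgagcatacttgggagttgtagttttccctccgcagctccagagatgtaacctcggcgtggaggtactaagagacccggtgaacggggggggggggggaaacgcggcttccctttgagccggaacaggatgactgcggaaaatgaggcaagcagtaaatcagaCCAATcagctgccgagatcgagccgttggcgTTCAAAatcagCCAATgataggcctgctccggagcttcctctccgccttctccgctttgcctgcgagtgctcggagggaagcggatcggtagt
Cenpf (chr1:189688037-189688336, minus strand): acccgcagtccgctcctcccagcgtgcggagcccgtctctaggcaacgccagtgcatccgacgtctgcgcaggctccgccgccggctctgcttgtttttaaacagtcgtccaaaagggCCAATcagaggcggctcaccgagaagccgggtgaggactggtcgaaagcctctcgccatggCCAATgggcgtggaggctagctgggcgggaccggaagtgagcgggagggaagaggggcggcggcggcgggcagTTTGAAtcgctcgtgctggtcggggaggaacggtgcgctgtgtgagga
Kif11 (chr19:37376132-37376431, plus strand): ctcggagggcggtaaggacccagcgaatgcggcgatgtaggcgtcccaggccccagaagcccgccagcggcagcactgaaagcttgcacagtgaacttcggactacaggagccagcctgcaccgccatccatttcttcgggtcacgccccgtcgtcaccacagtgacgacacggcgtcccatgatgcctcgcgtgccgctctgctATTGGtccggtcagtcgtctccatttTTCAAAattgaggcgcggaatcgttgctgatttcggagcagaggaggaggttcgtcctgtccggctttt
Prc1 (chr7:80294201-80294500, plus strand): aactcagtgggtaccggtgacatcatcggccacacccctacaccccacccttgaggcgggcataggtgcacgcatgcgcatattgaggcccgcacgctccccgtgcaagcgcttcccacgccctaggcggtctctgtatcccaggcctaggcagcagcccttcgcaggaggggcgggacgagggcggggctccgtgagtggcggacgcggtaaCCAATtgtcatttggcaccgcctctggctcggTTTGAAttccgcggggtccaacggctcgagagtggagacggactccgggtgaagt
Mki67 (chr7:135716330-135716629, minus strand): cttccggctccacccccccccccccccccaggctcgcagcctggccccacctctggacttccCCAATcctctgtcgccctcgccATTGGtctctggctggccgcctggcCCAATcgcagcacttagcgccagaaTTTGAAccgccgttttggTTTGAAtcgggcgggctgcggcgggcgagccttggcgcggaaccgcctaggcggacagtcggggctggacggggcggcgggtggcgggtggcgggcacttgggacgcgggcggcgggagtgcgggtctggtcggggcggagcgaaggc
Ube2c (chr2:164769679-164769978, plus strand): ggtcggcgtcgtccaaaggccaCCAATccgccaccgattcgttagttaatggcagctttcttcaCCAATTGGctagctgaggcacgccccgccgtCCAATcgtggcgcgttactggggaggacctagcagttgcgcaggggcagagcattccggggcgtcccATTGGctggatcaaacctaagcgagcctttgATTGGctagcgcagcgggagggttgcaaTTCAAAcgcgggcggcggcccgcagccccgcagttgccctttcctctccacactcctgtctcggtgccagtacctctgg
The window of Birc5 held neither element, and those of the other 7 held both. In Cenpf the CHR match began 3 bases past the start, with CCAAT at 71 and 132 bases before it. Kif11 had CCAAT on the opposite strand 45 bases before the start and the CHR 19 bases before it. Ube2c, whose log2 fold change was positive, had 6 CCAAT matches and 1 CHR match. Of members called lower with a window, 10 of 14 had a CHR match (71.4%), and of members not called 26 of 33 (78.8%). Pttg1 had no match, nor did Mad2l1, Nusap1 and Kif18a, which were called lower. The first 30 transcribed bases were found in a GENCODE transcript of the gene for 33 of the 47 windows. The Pttg1 window (43425932 to 43426231) lay inside the gene's GENCODE span, and the Mad2l1 window (66534971 to 66535270) ended before its span. A window without a match thus does not show that the promoter lacks the letters.

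**Figure D3:**
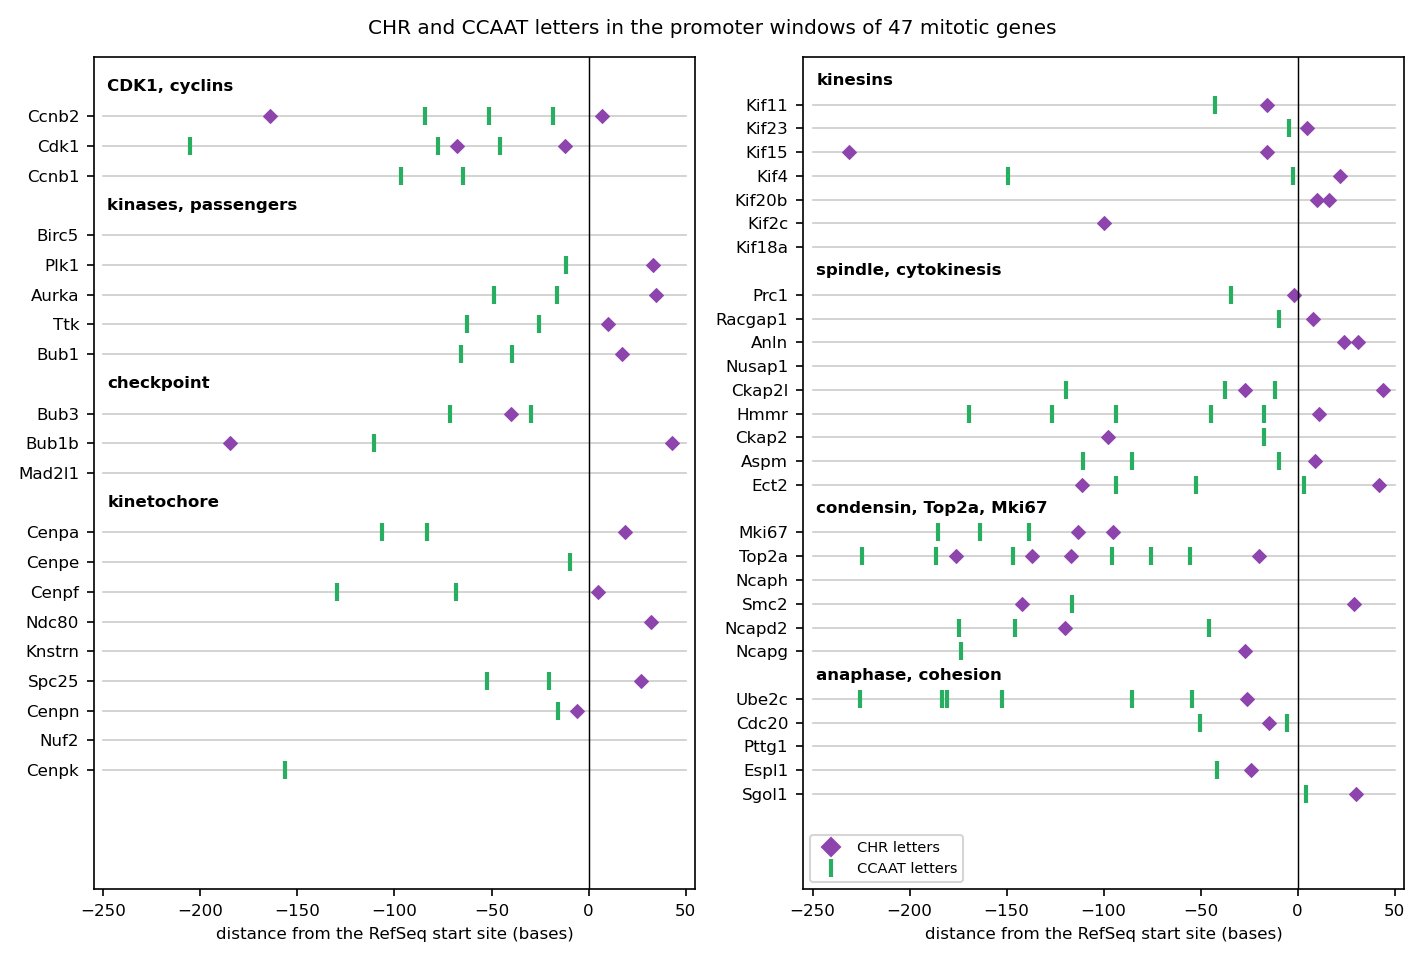
Position of CHR letters (purple diamonds) and CCAAT letters (green bars) in the promoter windows of 47 genes, grouped by role; the horizontal axis is the distance in bases from the RefSeq start, marked by the vertical line. In 32 of the 47 windows a diamond lies within 50 bases of the start.

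Of the CDK1 and cyclin group, 2 of 5 genes were lower and 3 did not pass, with a group median log2 fold change of -0.69. Ccna2, which encodes cyclin A2 and acts in S phase and at mitotic entry (chromosome 3, 36564865 to 36572150, mm10), stood at 54.2 and 61.8 CPM in libraries labelled 2KO and at 104 and 131 CPM in Control. It fell by 1.02 on the log2 scale (SE 0.185, adjusted p = 0.00603), with no overlap between the groups. Cdk1 itself (chromosome 10, 69335146 to 69352938) stood at 17.0 and 23.2 CPM in libraries labelled 2KO, against 42.3 and 37.8 CPM in Control. Its log2 fold change was -0.99 (SE 0.241, adjusted p = 0.0236). Without 2KO replicate 1 the change was -0.79 and not called. The B-type cyclins, the partners of CDK1 in mitosis proper, did not pass. Ccnb2, the most abundant of the group per length (chromosome 9, 70407692 to 70421547), had 53.5 and 51.4 CPM in libraries labelled 2KO and 56.0 and 66.1 CPM in Control (log2 fold change -0.22, SE 0.185, adjusted p = 0.490). Ccnb1 was at -0.32 and, on the FPKM scale, overlapped between the groups, at 9.46 and 10.03 FPKM in libraries labelled 2KO against 9.97 and 9.87 FPKM in Control. Cdc25c, the phosphatase that activates CDK1, was at -0.69 and did not pass. Exons of Ccna2 overlap those of Exosc9 on the other strand over 12.5% of their bases, and exons of Cdc25c overlap those of Gm3550 over 12.7%.

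Among 7 mitotic kinases and chromosomal passenger genes, 1 was lower and 6 did not pass (median -0.57). Incenp, the scaffold of the chromosomal passenger complex (chromosome 19, 9872296 to 9899551), had 36.6 and 48.1 CPM in libraries labelled 2KO and 73.2 and 80.6 CPM in Control. It fell by 0.86 (log2, SE 0.198, adjusted p = 0.0187), and without 2KO replicate 1 the change was -0.68 and no longer called. Birc5, the survivin subunit of the same complex and the group's most abundant gene per length, had 27.4 and 31.6 CPM in libraries labelled 2KO and 47.5 and 39.9 CPM in Control. Its groups did not overlap, but the difference did not pass (log2 fold change -0.57, SE 0.215, adjusted p = 0.112). Aurkb, the kinase of the complex, was at -0.61 and not called; without Control replicate 1 it was called lower at -0.71. Ttk and Bub1, kinases that act at unattached kinetochores, were at -0.75 and -0.48 and not called; Ttk was called lower by DESeq2 and with no filter on low counts. Plk1 and Aurka, kinases of mitotic entry and of the spindle poles, were at -0.18 and -0.39, with overlapping groups.

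Of the 3 spindle checkpoint proteins, Mad2l1 was lower. Mad2l1, which encodes the MAD2 protein that restrains the anaphase activator CDC20 (chromosome 6, 66535390 to 66547220), had 28.0 and 31.3 CPM in libraries labelled 2KO and 49.8 and 63.0 CPM in Control. Its log2 fold change was -0.92 (SE 0.211, adjusted p = 0.0180), and -0.85, not called, without 2KO replicate 1. Bub1b, the gene of the checkpoint protein BubR1, was at 42.1 and 63.5 CPM in libraries labelled 2KO, against 74.9 and 90.4 CPM in Control (log2 fold change -0.65, adjusted p = 0.0832). Bub1b was called lower under 5 of 18 other settings: without 2KO replicate 2 (-0.98), without Control replicate 1 (-0.75), with no filter on low counts, and with the replicate block alone or joined to the GC and length offset. Bub3, the most abundant of the 3 per length, overlapped between the groups, at 39.1 and 46.7 CPM in libraries labelled 2KO and 45.2 and 59.2 CPM in Control (log2 fold change -0.28, SE 0.212, adjusted p = 0.431).

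Of 10 centromere and kinetochore genes, 3 were lower and 7 did not pass (median -0.76). Cenpf and Cenpe, large proteins of the outer kinetochore, had the smallest p-values of the group. Cenpf (chromosome 1, 189640606 to 189688086) had 99.6 and 110.2 CPM in libraries labelled 2KO and 242 and 208 CPM in Control, a log2 fold change of -1.10 (SE 0.161, adjusted p = 0.00165). Cenpe, a motor protein that carries chromosomes along microtubules (chromosome 3, 135212537 to 135273611), had 104 and 98.8 CPM in libraries labelled 2KO and 217 and 194 CPM in Control. It fell by 1.02 (SE 0.157, adjusted p = 0.00225). In both genes the lowest Control library was above the higher 2KO-labelled library by more than the replicates differed.

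The NDC80 complex, the kinetochore's main grip on microtubules, has Spc24, Spc25, Ndc80 and Nuf2 as its subunits. Spc24 (chromosome 9, 21755442 to 21760303) was called lower, at 23.9 and 17.7 CPM in libraries labelled 2KO and 36.5 and 48.8 CPM in Control (log2 fold change -1.04, SE 0.251, adjusted p = 0.0234). The Spc24 call ended without 2KO replicate 2 (-0.84) and without Control replicate 2 (-0.80). Spc25, Nuf2 and Ndc80 were at log2 fold changes of -0.94, -0.83 and -0.68, each with both 2KO-labelled libraries below both Control libraries, and did not pass (adjusted p = 0.0651, 0.0657 and 0.170). Without Control replicate 1, Ndc80 and Spc25 were called lower, at -1.02 and -1.04, and with no filter on low counts Spc25 and Nuf2 were. Genes of the inner, DNA-facing part of the kinetochore did not pass. Cenpa, the histone H3 variant that marks the centromere, had 31.1 and 28.3 CPM in libraries labelled 2KO and 39.6 and 36.3 CPM in Control (log2 fold change -0.35, adjusted p = 0.317). Cenpn and Cenpk, of the constitutive centromere network, were at 0.18 and 0.12 with overlapping groups. Both signs turned without 2KO replicate 1 (-0.10 and -0.88), and Cenpk was at 5.95 CPM in that library against 1.98 CPM in the other replicate. Knstrn, a kinetochore protein of spindle orientation, was at -0.63 and not called. Whether inner and outer kinetochore genes differ in their change was not tested.

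Of the 8 kinesins, 5 were lower and 3 did not pass, with a median log2 fold change of -0.69. Kif11 encodes the motor that pushes spindle poles apart and was the group's most abundant gene per length (chromosome 19, 37376403 to 37421859). It had 98.7 and 110.2 CPM in libraries labelled 2KO and 163 and 157 CPM in Control, a log2 fold change of -0.62 (SE 0.157, adjusted p = 0.0286). The call for Kif11 ended without either 2KO-labelled library, at -0.54 without replicate 1 and -0.71 without replicate 2. Kif23, the motor of centralspindlin, which builds the midzone between separating chromosomes, had 64.5 and 49.7 CPM in libraries labelled 2KO and 102 and 92.7 CPM in Control (log2 fold change -0.77, SE 0.188, adjusted p = 0.0245). Without 2KO replicate 2 it was at -0.60 and not called. Kif4, a motor that rides on chromosome arms (chromosome X, 100625737 to 100727214), had 38.3 and 48.8 CPM in libraries labelled 2KO and 75.3 and 80.2 CPM in Control (log2 fold change -0.83, SE 0.192, adjusted p = 0.0188). Without 2KO replicate 1 Kif4 was at -0.67 and not called. Its exons overlap those of Pdzd11 on the other strand over 15.1% of their bases.

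Kif20b, a motor of late cytokinesis, had 47.3 and 35.9 CPM in libraries labelled 2KO and 69.0 and 71.3 CPM in Control (log2 fold change -0.75, SE 0.198, adjusted p = 0.0325). Without 2KO replicate 2 it was at -0.58 and not called. Kif18a, which damps chromosome movement at the metaphase plate (chromosome 2, 109280738 to 109341747), showed the lowest log2 fold change of the 55 genes, -1.18 (SE 0.337, adjusted p = 0.0442). It was also the least expressed kinesin of the list per length, at 1.72 and 2.46 FPKM in libraries labelled 2KO and 3.74 and 3.94 FPKM in Control. In CPM it stood at 6.12 and 8.81 in libraries labelled 2KO and at 15.5 and 18.4 in Control. The call was lost without 2KO replicate 1 (-0.95), without Control replicate 2 (-1.05), with upper-quartile scaling (-1.14) and with an offset for transcript GC and length (-1.05). Kif15, which backs up Kif11 at the spindle, missed the threshold at -0.60 (adjusted p = 0.0516) and was called lower under 7 of 18 other settings. These were DESeq2 (-0.59), limma-voom (-0.60), robust dispersion (-0.60), no filter on low counts (-0.61), the 1 CPM filter (-0.59), the replicate block (-0.61) and leaving out Control replicate 2 (-0.64). Kif2c, which takes microtubules apart at the centromere, was at -0.40. Kif20a, needed to bring the chromosomal passengers to the midzone, was at -0.23, and at 0.04 without Control replicate 1. Exons of Kif20a overlap those of Cdc23 over 29.3% of their bases.

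Of 10 spindle and cytokinesis proteins, 5 were lower and 5 did not pass (median -0.64). Tpx2, which activates Aurora A on the spindle (chromosome 2, 152847964 to 152895321), had 73.6 and 74.9 CPM in libraries labelled 2KO and 121 and 139 CPM in Control. It fell by 0.81 (log2, SE 0.165, adjusted p = 0.0106). Aspm, a spindle pole protein (chromosome 1, 139454772 to 139494091), had 79.5 and 77.0 CPM in libraries labelled 2KO and 154 and 139 CPM in Control, a log2 fold change of -0.90 (SE 0.161, adjusted p = 0.00536). The replicates of both genes lay close together beside the gap between the groups. Racgap1, the partner of Kif23 in centralspindlin, had 38.1 and 46.0 CPM in libraries labelled 2KO and 75.4 and 68.8 CPM in Control (log2 fold change -0.78, SE 0.190, adjusted p = 0.0242). Without 2KO replicate 1 it was at -0.65 and not called. Anln, an anillin of the cleavage furrow, had 87.8 and 76.7 CPM in libraries labelled 2KO and 152 and 126 CPM in Control (log2 fold change -0.76, SE 0.172, adjusted p = 0.0180), and was not called without 2KO replicate 2 (-0.67). Nusap1, which bundles spindle microtubules, had 44.7 and 47.7 CPM in libraries labelled 2KO and 65.9 and 82.2 CPM in Control (log2 fold change -0.68, SE 0.190, adjusted p = 0.0413). The Nusap1 call was lost without 2KO replicate 1 (-0.64), without 2KO replicate 2 (-0.73) and without Control replicate 2 (-0.50), and with upper-quartile scaling (-0.63) or the GC and length offset (-0.56).

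Other genes of the spindle and cytokinesis group did not pass. Prc1, the microtubule crosslinker of the midzone and the most abundant of the group per length (chromosome 7, 80294450 to 80316259), had 70.1 and 63.4 CPM in libraries labelled 2KO and 90.7 and 78.7 CPM in Control (log2 fold change -0.34, SE 0.176, adjusted p = 0.234). Ckap2, Hmmr and Ect2 were at log2 fold changes of -0.60, -0.49 and -0.43, each with non-overlapping groups. Hmmr is a spindle assembly protein and Ect2 the exchange factor that switches on RhoA at the furrow. Ckap2l, a spindle protein, stood at 62.0 and 52.4 CPM in libraries labelled 2KO and 65.0 and 49.6 CPM in Control (log2 fold change -0.0029, SE 0.202, adjusted p = 0.994). Its sign turned under 13 of 18 other settings, among them RLE and upper-quartile scaling, with values from -0.18 to 0.23.

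The chromosome group joins condensin, which compacts chromosomes, with Top2a and Mki67, and 2 of its 7 genes were lower (median -0.49). Top2a, whose product untangles sister DNA (chromosome 11, 98992943 to 99024189), had 253 and 315 CPM in libraries labelled 2KO and 600.2 and 573 CPM in Control. It fell by 1.05 (log2, SE 0.153, adjusted p = 0.00167), and it was the only one of the 55 genes called lower on filtered FPKM values. Mki67, whose product coats mitotic chromosomes (chromosome 7, 135689784 to 135716361), had 778 and 694 CPM in libraries labelled 2KO and 990.2 and 914 CPM in Control. Both 2KO-labelled libraries were below both Control libraries, but Mki67 did not pass (log2 fold change -0.37, SE 0.135, adjusted p = 0.1003). It was called lower under 1 of 18 other settings, the GC and length offset with the replicate block (-0.44). The difference between the changes of Top2a and Mki67 was not tested.

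Smc4, an ATPase of the condensin core, was the condensin gene that was called, at 159 and 161 CPM in libraries labelled 2KO and 282 and 209 CPM in Control (log2 fold change -0.62, SE 0.173, adjusted p = 0.0407). The call was lost without 2KO replicate 1 (-0.61), 2KO replicate 2 (-0.64) or Control replicate 1 (-0.36), and with upper-quartile scaling (-0.57) or the GC and length offset (-0.54). The Control replicates of Smc4 lay farther apart than those of the 2KO-labelled group. The other core ATPase, Smc2, was at -0.46 (adjusted p = 0.0983). Of the condensin I subunits, Ncapg, Ncapd2 and Ncaph were at -0.63, -0.49 and -0.28 and did not pass. Ncapd2 was called lower with the GC and length offset (-0.65). Ncaph was at 46.7 and 58.9 CPM in libraries labelled 2KO and 70.7 and 57.3 CPM in Control, with overlapping groups.

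Of the 5 genes of anaphase and of cohesin release, 3 had positive log2 fold changes, and 0 passed in either direction (2 lower and 2 higher at an unadjusted p under 0.05). Their median log2 fold change was 0.09. Pttg1, which encodes securin, the inhibitor of separase (chromosome 11, 43420250 to 43426251), had 20.6 and 20.7 CPM in libraries labelled 2KO and 11.8 and 11.7 CPM in Control, a log2 fold change of 0.82 (SE 0.271, adjusted p = 0.0751). It was called higher with the GC and length offset (0.99) and on log2(FPKM + 1) values (0.93). Ube2c (chromosome 2, 164769898 to 164778822) had 205 and 218 CPM in libraries labelled 2KO and 159 and 164 CPM in Control, a log2 fold change of 0.39 (SE 0.149, adjusted p = 0.115). In both genes the 2KO-labelled libraries lay above the Control libraries without overlap. Exons of Ube2c overlap those of Tnnc2, a troponin of skeletal muscle, over 22.8% of their bases. Cdc20, the activator of the anaphase-promoting complex, had 50.7 and 51.7 CPM in libraries labelled 2KO and 53.8 and 42.2 CPM in Control (log2 fold change 0.09, adjusted p = 0.814), and was at -0.07 without Control replicate 2. Espl1, the gene of separase, was at -0.55, and Sgol1, whose product shields centromeric cohesin, at -0.83, both below Control without overlap and not called. Espl1 was called lower with the GC and length offset (-0.82), and Sgol1 without 2KO replicate 2 (-1.22), without Control replicate 1 (-1.09) and with no filter on low counts (-0.84).

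Across the 55 genes the change was more negative in longer transcripts. The Pearson correlation of log2 fold change with log10 transcript length was -0.51 and Spearman's rho -0.40 over the 55 genes, given as a description, since genes of the same libraries are not independent. Over 15193 genes tested with a length it was 0.061 and 0.078, of the opposite sign. The 2 members under 1 kb, Pttg1 and Cenpa, had a median of 0.23, and the 14 members of 4 to 8 kb a median of -0.69. All genes of those lengths had medians of -0.023 and 0.057. With GC content, measured over the transcript, the correlation was 0.25 over the 55 genes and 0.17 over all. The members' median GC content was 46.0%, against 50.9% over all genes tested, and genes of 45 to 50% GC had a median log2 fold change of -0.097. An offset for GC content and length in each library was fitted over all genes tested, where the length trend had the opposite sign. It therefore could not remove the length trend of the 55. With this offset, 18 of the 55 genes were called lower and 1 higher, with a median of -0.55. The calls lost were those of Kif18a, Nusap1 and Smc4.

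**Figure D4:**
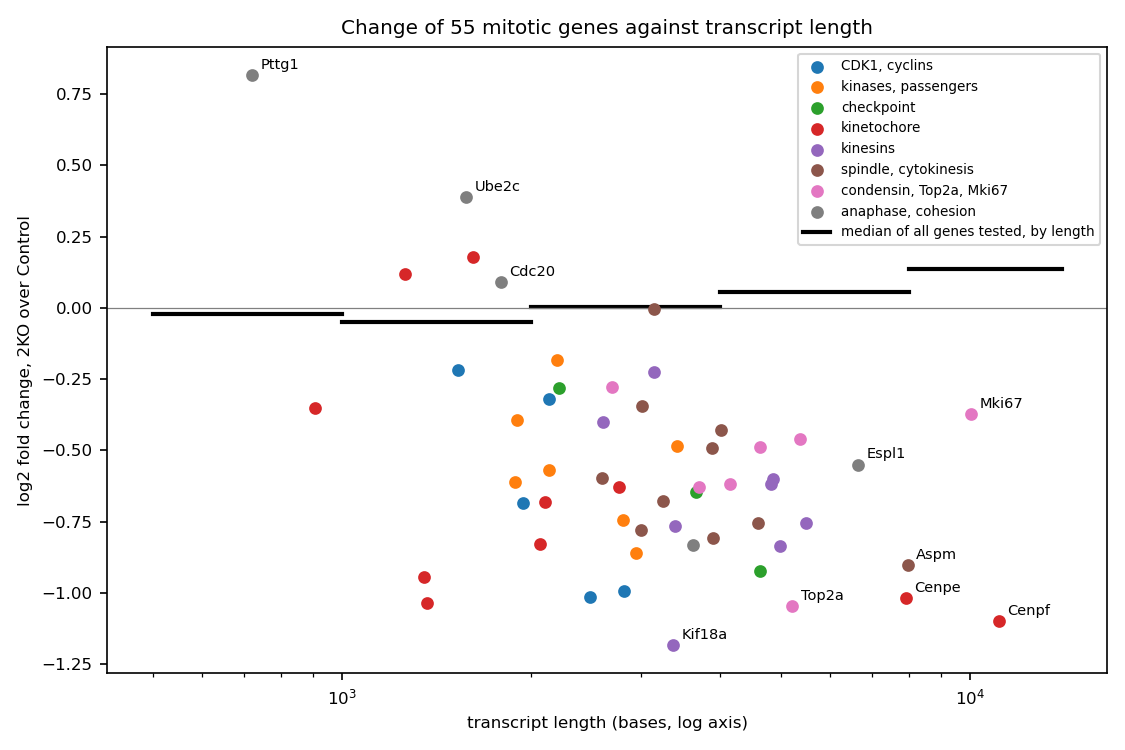
Log2 fold change (2KO over Control) of the 55 genes against transcript length in bases (log axis), coloured by role; black lines are the median over all genes tested in each length class. Pttg1, the shortest at 720.5 bases, is highest at 0.82, and the long Cenpf and Cenpe lie below -1, while the black lines stay between -0.05 and 0.14.

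Related cell cycle genes outside the 55 were read from lists of the same machinery, and 25 of the 26 called ones were lower. Over all 15336 genes tested, 754 were called lower (4.92%) and 1073 higher (7%), the background for the count of each list. Of 30 other kinetochore and centromere genes, 4 were lower and 0 higher (median log2 fold change -0.31), with 23 negative and 7 positive values. The lower genes were Nsl1 (-1.76) and Mis12 (-0.98), subunits of the complex that ties the NDC80 complex to the centromere. Kntc1 (-0.78) and Spdl1 (-1.05), which bring dynein to kinetochores, were the others. Zwint, of the same list, had 160 and 115 CPM in libraries labelled 2KO and 107 and 83.3 CPM in Control. Its groups did not overlap, but it was not called (log2 fold change 0.53, adjusted p = 0.115). Of 19 other mitotic kinases and regulators, 6 were lower (median -0.70). Pbk, a mitotic kinase, had 21.1 and 23.3 CPM in libraries labelled 2KO and 59.4 and 42.3 CPM in Control (log2 fold change -1.20, SE 0.234, adjusted p = 0.00849). Cdca8, which encodes the borealin subunit of the chromosomal passenger complex, was at -0.92, Nek2 at -0.95, Mastl at -0.95, Cit at -0.76 and Wee1, the kinase that holds CDK1 inactive, at -0.70. Of 21 other mitotic kinesins, spindle and cytokinesis genes, 3 were lower, Kif22 (-1.37), Dlgap5 (-0.77) and Kif14 (-0.64), with a median of -0.59. Of 14 cohesin and condensin II genes, 5 were lower (median -0.55). Smc1a, a core subunit of cohesin, had 178 and 186 CPM in libraries labelled 2KO and 342 and 335 CPM in Control (log2 fold change -0.90, SE 0.143, adjusted p = 0.00277). The cohesin core ATPase Smc3 was at -0.58, the cohesin regulators Esco2 and Pds5a at -1.03 and -0.67, and Ncapg2 of condensin II at -0.65. Leaving out a library ended most of these calls. Without 2KO replicate 1, Mis12, Kntc1, Spdl1, Mastl, Wee1, Cit, Kif14, Kif22, Dlgap5, Smc3, Esco2, Pds5a and Ncapg2 were not called, at values from -1.08 for Mastl to -0.62 for Pds5a. Without 2KO replicate 2, Kntc1, Nek2, Mastl, Wee1, Cit, Kif14, Dlgap5, Smc3 and Ncapg2 were not called, at -0.85 for Mastl to -0.55 for Smc3. Without Control replicate 1, Nsl1, Mis12, Mastl, Wee1, Dlgap5 and Smc3 were not called, at -1.40 for Nsl1 to -0.43 for Smc3. Without Control replicate 2, Spdl1, Cdca8, Cit, Kif14 and Ncapg2 were not called, at -0.78 for Spdl1 to -0.50 for Kif14. The calls of Pbk and Smc1a held without each library.

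Further lists took in regulators of the mitotic programme, DNA replication and the G1 phase. Of 16 subunits of the anaphase-promoting complex, 2 were lower, Anapc4 (-1.04) and Anapc2 (-0.71), with a median of -0.17. Of 24 genes of the DREAM and MYB-MuvB complexes, E2F factors and FOXM1, 0 were called by edgeR in either direction, with 4 lower and 0 higher at an unadjusted p under 0.05 (median -0.26). Per length the most abundant were Tfdp1, at 39.3 mean FPKM and a log2 fold change of -0.27, and E2f4, at 32.1 mean FPKM and 0.21 with overlapping groups (adjusted p = 0.593). Rbbp4, with the second highest mean CPM, was at -0.25. Foxm1, a transcription factor of G2 and M phase genes chosen after its values were seen, was at 59.9 and 74.9 CPM in libraries labelled 2KO and 90.1 and 80.0 CPM in Control (log2 fold change -0.34, adjusted p = 0.268). Of 33 DNA replication genes, 4 were lower and 0 higher (median -0.34). Rrm1, the large subunit of ribonucleotide reductase, had 104 and 129.6 CPM in libraries labelled 2KO and 202 and 289 CPM in Control (log2 fold change -1.07, SE 0.197, adjusted p = 0.00651). Lig1, the ligase that joins Okazaki fragments, was at -0.88, Fen1, the flap nuclease, at -1.01 and Mcm5 of the replicative helicase at -0.83. Among the G1 genes 1 call went in the other direction, where 7% of all genes tested were called higher. The log2 fold changes of that list were 4 positive and 4 negative (median 0.10). Of 8 G1 cyclins and kinases, 1 was higher and 0 lower: Cdk6, a kinase of the G1 phase, had 452 and 419 CPM in libraries labelled 2KO and 290.3 and 293 CPM in Control (log2 fold change 0.58, SE 0.140, adjusted p = 0.0231). Of 7 CDK inhibitors, 1 was lower, Cdkn1b, which encodes p27, at 13.4 and 15.4 CPM in libraries labelled 2KO and 27.2 and 25.5 CPM in Control (log2 fold change -0.87, SE 0.254, adjusted p = 0.0488). Cdkn2a, a Polycomb target in many tissues and named here after its values were seen, had 75 and 59 reads in libraries labelled 2KO and 12 and 0 in Control, and did not pass (adjusted p = 0.0850). Single libraries mattered here too. Cdkn1b was not called without 2KO replicate 1 (-0.77), 2KO replicate 2 (-0.98) or Control replicate 1 (-0.80), and Cdk6 not without 2KO replicate 1 (0.52). Without 2KO replicate 1, Anapc2 (-0.78), Mcm5 (-0.64) and Fen1 (-0.93) were not called, and without 2KO replicate 2, Anapc2 (-0.65) and Fen1 (-1.09). Without Control replicate 2, Anapc4 (-0.65), Anapc2 (-0.62), Mcm5 (-0.68) and Fen1 (-0.72) were not called. Rrm1 and Lig1 held without each library. Upper-quartile scaling also ended the calls of Mastl, Cit, Kif14, Ncapg2, Anapc2, Cdkn1b and Fen1. The GC and length offset ended those of Mis12, Mastl, Esco2 and Cdkn1b, and RLE scaling those of Kif14 and Cdkn1b. Removing Rn45s, Malat1 and Lars2 ended those of Kif14, Cdkn1b and Fen1, and limma-voom that of Fen1. On log2(FPKM + 1) values Nsl1 and Lig1 alone of the 26 called genes of these lists were still called.

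**Figure D5:**
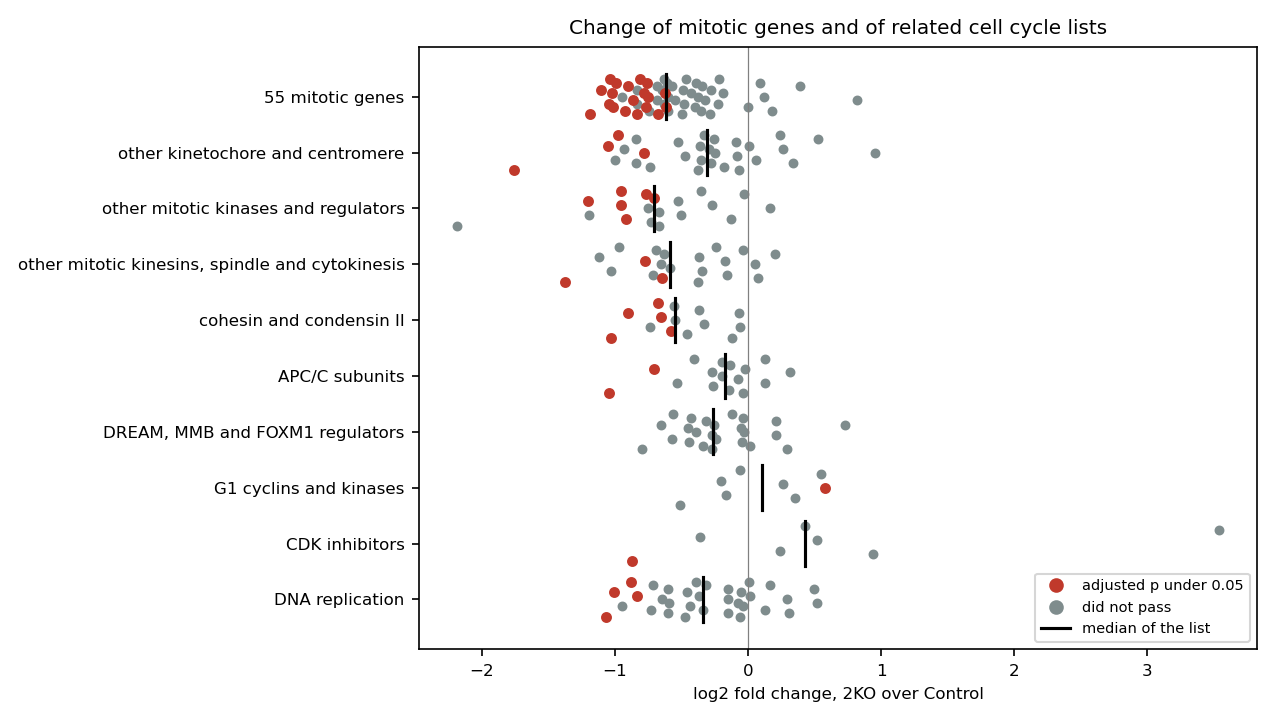
Log2 fold change (2KO over Control) of the 55 mitotic genes and of 9 related cell cycle lists, 1 point a gene; red points passed an adjusted p of 0.05, grey points did not, and black bars are list medians. The bar lies at -0.62 for the 55 genes and right of 0 only for G1 cyclins and kinases (0.10) and CDK inhibitors (0.43).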

How the data were processed

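RNA-seq was measured in 4 libraries, 2 labelled 2KO and 2 labelled Control. The whole-number read counts per gene and the FPKM values were made by the authors and used as deposited. The submitters' processing notes name the build mm10 and the tools DESeq2 1.6.3, HTSeq 0.6.1, Cufflinks 2.2.1 and TopHat2 2.0.13. The FPKM values are labelled cuffnorm. Which tool made the counts, the annotation and the use of strand were not given in the sources used here. Genes with overlapping exons (16 of the 55, 7 of them over at least 10% of exon bases) may share reads. Per the labels' protocols, a small amount of RNA was amplified before sequencing, so reads are not independent molecules.

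Deposited counts were tested with edgeR 4.0.16 in R 4.3.3 (TMM, filterByExpr with the group, quasi-likelihood test of genotype, two-sided), with p-values adjusted by Benjamini-Hochberg across the 15336 tested genes and calls made under 0.05. All 55 genes passed the filter. Adjusted p-values come from this test except where another is named, and the SE is the log2 fold change divided by the square root of F. The biological coefficient of variation was 0.313. Replicates differed beyond sampling noise (the chi-square of their counts over its degrees of freedom was 22.7 in 2KO and 28.7 in Control), and same-numbered libraries did not deviate together (correlation -0.012). Levels were compared between genes on FPKM, though uncalled lists were also named from by mean CPM. Alternatives were RLE and upper-quartile scaling, DESeq2 1.42.0, limma-voom (limma 3.58.1), a robust dispersion, no filter or a 1 CPM filter, the replicate number as a block, an offset for GC content and length, removal of Rn45s, Malat1 and Lars2, limma-trend on log2(FPKM + 1) or log2(FPKM + 0.1) for genes of mean FPKM of at least 1 or without that filter, and each library left out.

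The members, lists, tests and named genes were chosen with earlier results of these data known, so no list was tested. Values per library are given for every called member, the most abundant of each role, and Top2a, Mki67 and Cdk1; of other lists, called genes are named, or the 2 with the highest mean CPM, and E2f4 was added after its values were seen. Promoters shown are of the highest mean FPKM in each role, with places left filled by called members of smallest p. Gene symbols were matched to GENCODE on GRCm38 for coordinates, and transcript length and GC content are the median and mean over basic transcripts (15193 of the tested genes, 99.1%). Promoter windows are from RefSeq. Of these steps, only the main edgeR test was tried on simulated counts.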

Additional observations from a re-analysis of the deposited data

How the results depend on the processing

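The count of 19 members called lower and 0 higher was within 1.5 times of that value, and the direction of their median did not turn, with RLE scaling (19 lower), upper-quartile scaling (16), DESeq2 (21), limma-voom (20), robust dispersion (20), no filter (25), the 1 CPM filter (20) and without Rn45s, Malat1 and Lars2 (19). The median log2 fold change of the members, -0.62, moved by more than the SD between replicates (0.0458) to -0.57 with upper-quartile scaling, where the median over all genes was 0.06. It was -0.55 with the GC and length offset (18 lower and 1 higher, Pttg1) and -0.55 with that offset and the replicate block (22 lower and 1 higher). With the replicate block alone, 21 members were lower and the counts over all genes were 1156 higher and 880 lower. The labels do not say whether same-numbered libraries are paired. With no filter on low counts, 1242 genes were called lower in place of 754. On log2(FPKM + 1), 507 genes were higher and 204 lower, with 1 member higher and 1 lower and a member median of -0.45. On log2(FPKM + 0.1) the counts were 410 and 171, with 0 members higher and 1 lower and a median of -0.47. With no filter on FPKM, 0 genes were called higher, 0 lower and 0 members, with a median of -0.45. The cause of these differences was not tested.

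With 1 library left out, the remaining library of its group is assumed to vary like the other group. Members called lower then numbered 10 (without 2KO replicate 1) to 23 (without Control replicate 1), with 0 higher in each. The member median ran from -0.67 to -0.52, genes called higher from 839 to 1643 and genes called lower from 537 to 1104. Of the 19 member calls, 6 held in every setting on counts, 13 ended without some library, 3 ended with upper-quartile scaling and 3 with the GC and length offset. Depth limits the genes of few reads, such as Cenpk, whose sign turned in 3 of 18 settings.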
